A study of Mus musculus with 4 samples.

Results

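Nos2, Ass1, Slc7a2 and Odc1, 4 genes that handle the amino acid arginine, were examined in CD45+ cells of mouse melanomas. They were taken by symbol, and all 4 were among the 12584 genes of the deposited table. They are described by cell class and by library, together with what else was counted in the single cells that held Nos2 molecules.

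Arginine enters a myeloid cell through membrane carriers and can then take different routes. Arginine can be split into ornithine and urea, and ornithine decarboxylase, encoded by Odc1, turns ornithine into the polyamine putrescine. The inducible nitric oxide synthase, encoded by Nos2, instead oxidises arginine to nitric oxide and citrulline, and Ass1 catalyses the first of the steps that rebuild arginine from citrulline. Nos2 is a textbook marker of macrophages activated by interferon-γ and microbial products.

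The tumours were YUMM1.7-OVA RTT, a mouse melanoma line carrying the model antigen ovalbumin and resistant to targeted therapy (RTT), grown in Rag2-/- mice, hosts without T or B lymphocytes. All mice received adoptive cell therapy (ACT) with ovalbumin-specific OT-1 T cells on day 7, and tumours were taken on day 10, 72 h after ACT, when live CD45+ cells were sorted. Groups were RTT with an empty mCherry vector (CTRL), RTT with IRF3 and IRF7 overexpressed in the cancer cells from a viral SFFV promoter (IRF3/7), RTT mCherry under the COX2 inhibitor celecoxib (COX2i), and RTT mCherry under celecoxib and the DNA methyltransferase inhibitor 5-azacytidine (COX2i + 5-AZA). There was 1 library per group, made from 3 tumours pooled before the sort, and per the methods of the study the hosts were young adult mice, matched for age and sex in an experiment, while the sex used here is not given in the labels. IRF3/7 cells were a sorted bulk population and not 1 clone, and the hosts keep their NK cells and myeloid cells.

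Fixed cells were hybridised with probe pairs, and each ligated probe was read as a unique molecular identifier (UMI). The 4 libraries held 6329 to 10032 cells, 34447 in all, and 26356819 to 78722763 UMIs. IRF3/7 was the shallowest, with a median of 3148 UMIs in monocytes and macrophages against 6259.5 to 7611.5 in the other libraries. Each class name came from the deposited annotation, and monocytes (Infl_Mono, Monocyte_1, Monocyte_3) and macrophages (TAM_C1q, TAM_Spp1, TAM_cycling, TAM_H2Ab1, Ctsk_Macro, Macro) made up 5035 to 8801 cells of a library. Infl_Mono had the highest summed monocyte markers of all 17 classes, TAM_C1q the highest macrophage markers and TAM_Spp1 the highest Spp1. Monocyte_1, whose name is kept from the annotation, was set apart less clearly: its monocyte markers summed to 5163 CPM, below Neutro (6225) and near NK_cells (4871), and its macrophage markers to 9653 CPM. T_CD8 held only 16 cells in all. The mix differed: CTRL held 139 monocytes and 7475 macrophages, IRF3/7 4596 and 439, COX2i 558 and 6820, and COX2i + 5-AZA 4684 and 4117. Of 29259 droplet barcodes, 4830 occurred in 2 or more libraries, as a multiplexed run allows, and 28.1% to 31.7% of the cells of a library shared such a droplet.

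Levels are UMI sums scaled to the total UMIs of the same cells, in the usual unit CPM, and differences are log2 ratios of CPM. With 1 library per group there is no replicate check and no test, the 95% intervals in parentheses cover counting error only, and the spread between tumours is unknown. Of the 4 comparisons, 3 share the CTRL library. Levels of different genes are not set against each other, since probes differ in efficiency.

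The genes lie on GRCm38 as follows. Nos2 (ENSMUSG00000020826) covers chr11:78920787-78960254, Ass1 (ENSMUSG00000076441) chr2:31470207-31520672, Slc7a2 (ENSMUSG00000031596) chr8:40862396-40922308 and Odc1 (ENSMUSG00000011179) chr12:17544794-17551505, all on the plus strand. Promoter sequence from RefSeq (GRCm38.p6) was matched for 2 of the 4, Ass1 and Odc1, and is shown for these. Its part in their levels was not tested. The stretches end at the base before the gene start, at chr2:31470020-31470206 for Ass1 (plus strand) and chr12:17544623-17544793 for Odc1 (plus strand), and capitals mark the matches to GCGTG and GGGCGG on either strand.
Ass1: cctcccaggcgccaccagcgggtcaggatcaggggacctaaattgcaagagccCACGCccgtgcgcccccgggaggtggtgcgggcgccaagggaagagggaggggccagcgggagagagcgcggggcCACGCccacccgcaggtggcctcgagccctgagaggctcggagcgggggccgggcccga
Odc1: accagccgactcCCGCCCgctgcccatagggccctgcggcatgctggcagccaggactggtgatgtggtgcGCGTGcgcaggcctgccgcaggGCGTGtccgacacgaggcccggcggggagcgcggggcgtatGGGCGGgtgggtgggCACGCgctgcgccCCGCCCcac

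Both stretches were rich in G and C (75.4% over 187 bases for Ass1 and 77.2% over 171 bases for Odc1). The median over promoters was 52.4%, taken over a longer window of 250 bases. The letters GCGTG, the core that HIF proteins can bind, occurred 2 times in the Ass1 stretch and 3 times in the Odc1 stretch, and 20.8% and 18.9% of 32851 promoters held them in a window of the same place and length. The Sp1 letters GGGCGG occurred 3 times before Odc1 and not before Ass1 (19.6% and 22.2% of promoters). None of the other motifs searched on both strands had a match in either stretch. These were the interferon-response letters GAAA and GAAA at 2 bases apart (2.30% of promoters in the Ass1 window and 2.12% in the Odc1 window), the NF-κB letters GGGA and TCC at 3 bases apart (2.83% and 2.55%), ACGTG (11.9% and 10.6%) and CACGTG, which contains ACGTG (3.94% and 3.41%).

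Nos2 was high in IRF3/7 and in COX2i + 5-AZA. In monocytes and macrophages it stood at 6.84 CPM (6.17 to 7.57) in CTRL, 115 (110 to 120) in IRF3/7, 8.94 (8.21 to 9.71) in COX2i and 127 (124 to 129) in COX2i + 5-AZA, from 374, 2050, 559 and 8663 UMIs. No 2 of these intervals overlapped, and IRF3/7 and COX2i + 5-AZA stood far above CTRL and COX2i. The log2 ratio was 4.07 (3.91 to 4.23) for IRF3/7 against CTRL, 4.21 (4.06 to 4.36) for COX2i + 5-AZA against CTRL and 3.82 (3.7 to 3.95) for COX2i + 5-AZA against COX2i. With common class weights, over the classes that had at least 50 cells in both libraries, these ratios were 0.81 (Infl_Mono only), 2.37 and 1.89. For COX2i against CTRL the log2 ratio was 0.39 (0.19 to 0.58). With common class weights over 5 classes it was -0.90, so no direction is given, and these classes leave out Monocyte_1, which held 253 of the 559 UMIs of COX2i, and include Infl_Mono with 8 UMIs in COX2i and 35 in CTRL. The summed level of 8 macrophage markers, all above 0 in each library, ran from 45572 CPM in CTRL over 24797 and 20179 in COX2i and COX2i + 5-AZA to 13327 in IRF3/7, and their part in these differences was not tested.

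**Figure D1:**
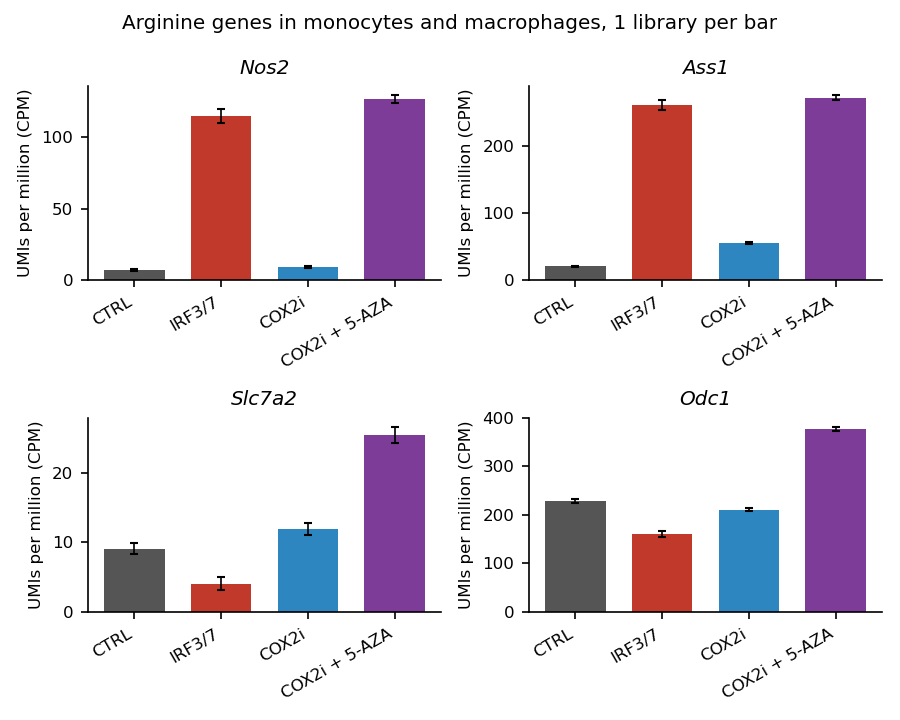
Level of the 4 genes in monocytes and macrophages of each library, in CPM on a linear axis that starts at 0, with 1 panel per gene and bars with exact 95% Poisson intervals. Nos2 and Ass1 were highest in IRF3/7 and COX2i + 5-AZA (115 and 127 CPM, 263 and 273 CPM), Slc7a2 was lowest in IRF3/7 (3.92 CPM), and Odc1 was highest in COX2i + 5-AZA (377 CPM).

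Among the monocyte and macrophage classes, Nos2 was highest in Monocyte_1 of IRF3/7, COX2i and COX2i + 5-AZA. Because the classes were cut from clusters of the same cells' expression, and Nos2 is a leading gene of Monocyte_1, class differences are a description and carry no test. Monocyte_1 stood at 212 CPM in IRF3/7, 152 in COX2i and 282 in COX2i + 5-AZA, and Infl_Mono at 72.3 CPM in CTRL (50.3 to 101), 127 in IRF3/7, 13.1 (5.66 to 25.8) in COX2i and 211 in COX2i + 5-AZA. Within Infl_Mono the log2 ratio of IRF3/7 against CTRL was 0.81 (0.33 to 1.34), and over all monocytes it was -0.06 (-0.36 to 0.26), against 4.07 in monocytes and macrophages together. The CTRL side rests on 35 UMIs in 93 cells for Infl_Mono and on 94 UMIs in 139 cells for all monocytes. The CTRL Infl_Mono cells were mixed by their markers, with summed macrophage markers (all 8 above 0 in each library) at 50867 CPM against 9676 in IRF3/7, 17532 in COX2i and 6971 in COX2i + 5-AZA, and 6 monocyte markers at 7713, 16392, 9595 and 14245 CPM in CTRL, IRF3/7, COX2i and COX2i + 5-AZA. In the same order the 6 neutrophil markers, of which 5, 6, 4 and 6 were above 0, summed to 440, 1867, 422 and 5155 CPM in Infl_Mono. The part of these markers in the Infl_Mono values was not tested.

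For COX2i + 5-AZA, Nos2 was higher in TAM_Spp1 too. TAM_Spp1 held 20.4 CPM in CTRL, 19.8 in COX2i and 157 in COX2i + 5-AZA (log2 ratio 2.94 against CTRL and 2.99 against COX2i). TAM_C1q held 2.26, 4.08 and 20.7 CPM and TAM_cycling 0.635, 2.38 and 25.9 CPM, with log2 ratios against CTRL of 3.20 and 5.35. Classes that should lack Nos2 were higher in COX2i + 5-AZA as well, cDC2 at 9.91 CPM against 0.359, 1 UMI, in CTRL (log2 ratio 4.79, 2.05 to 10.2) and Myofibrobl at 8.17 against 1.04 CPM (2.98, 1.85 to 4.21), and NK cells stood at 18.5 CPM (12.9 to 25.7) there, near TAM_C1q, so the values of TAM_C1q and TAM_cycling are not set apart from this background, whereas TAM_Spp1 lay far above it. Monocyte_1 of COX2i + 5-AZA was above that of COX2i by 0.90. The level in Monocyte_1 and TAM_Spp1 was thus higher with 5-azacytidine and celecoxib than with celecoxib alone. Summed neutrophil markers differed in the same direction, at 168 CPM in COX2i and 671 in COX2i + 5-AZA in Monocyte_1 (5 and 6 of 6 above 0) and at 87.7 and 539 CPM in TAM_Spp1 (all 6 above 0), and their part in these differences was not tested.

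**Figure D2:**
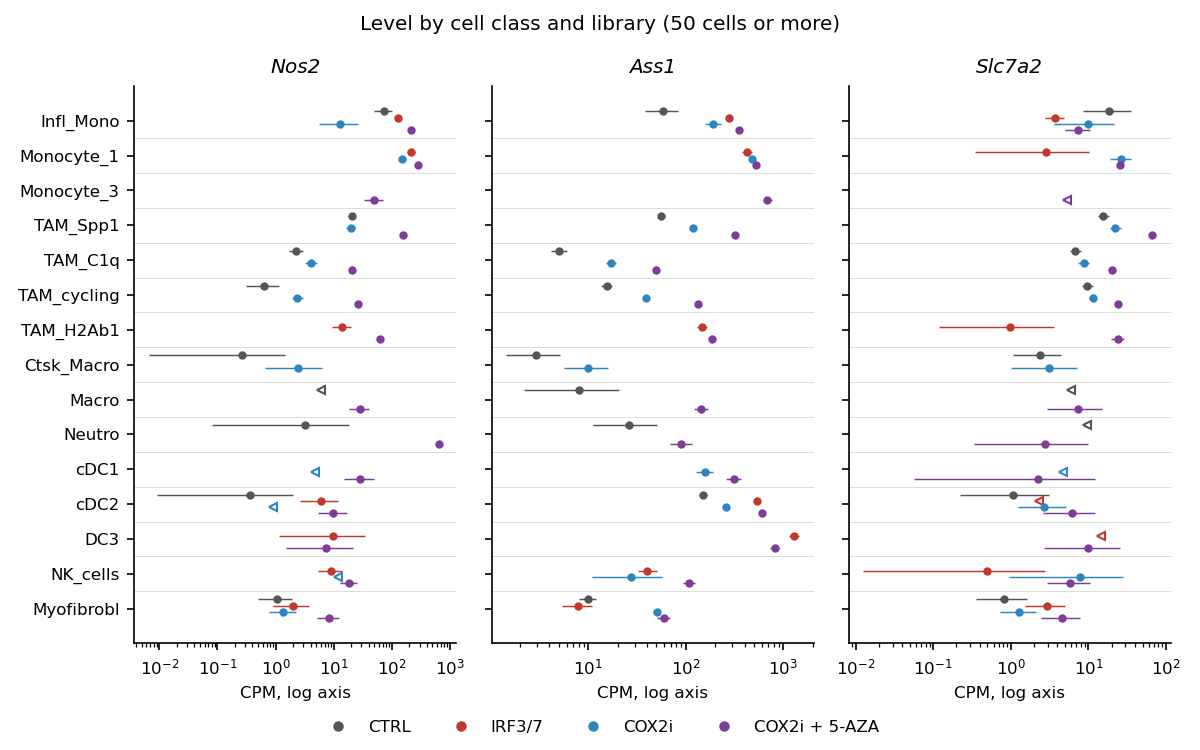
Nos2, Ass1 and Slc7a2 in each class with at least 50 cells, in CPM on a log axis, with 1 marker per library and exact 95% Poisson intervals. Open triangles mark the level that 3 UMIs would give where none was counted. The highest Nos2 value, 662 CPM, is that of Neutro in COX2i + 5-AZA, the highest Ass1 value, 1279 CPM, that of DC3 in IRF3/7, and the highest Slc7a2 value, 66.8 CPM, that of TAM_Spp1 in COX2i + 5-AZA.

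Neutrophils of COX2i + 5-AZA carried more Nos2 than any other class with at least 50 cells in a library. Neutro stood at 662 CPM (604 to 724) in 196 cells of COX2i + 5-AZA and at 3.24 CPM (0.0820 to 18.0), 1 UMI, in 65 cells of CTRL, a log2 ratio of 7.68 (5.19 to 12.98). The CTRL Neutro cells were mixed by their markers. All 6 neutrophil markers and all 8 macrophage markers were above 0 in both libraries, the neutrophil sum at 25772 CPM in CTRL and 95450 in COX2i + 5-AZA and the macrophage sum at 35217 and 5034. Whether they account for the Neutro values was not tested. Neutrophil markers also moved in monocytes and macrophages, at 154, 1610, 52.5 and 618 CPM in CTRL, IRF3/7, COX2i and COX2i + 5-AZA, highest in the libraries where Nos2 was high, and their part in those values was not tested.

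Ass1, which starts the return of citrulline to arginine, was like Nos2 high in IRF3/7 and in COX2i + 5-AZA. In monocytes and macrophages it stood at 20.4 CPM (19.2 to 21.7) in CTRL, 263 (255 to 270) in IRF3/7, 55.1 (53.3 to 57.0) in COX2i and 273 (269 to 277) in COX2i + 5-AZA, and the intervals of IRF3/7 and COX2i + 5-AZA overlapped. The log2 ratios against CTRL were 3.69 (3.59 to 3.78), 1.43 (1.34 to 1.53) and 3.74 (3.65 to 3.83), and COX2i + 5-AZA was above COX2i by 2.31 (2.25 to 2.36). With common class weights they were smaller in IRF3/7 (2.26, Infl_Mono only) and in COX2i + 5-AZA (2.81 against CTRL and 0.87 against COX2i). Ass1 stands in the inflammatory monocyte and monocyte 1 lists of the study, which were chosen on data that include these libraries, so its direction there is not independent evidence.

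Unlike Nos2, Ass1 was also high in dendritic cells. cDC2 held 152, 540, 260 and 607 CPM in CTRL, IRF3/7, COX2i and COX2i + 5-AZA, with log2 ratios against CTRL of 1.83, 0.78 and 2.00. DC3, the CCR7+ dendritic cells, held 1279 CPM in IRF3/7 and 816 in COX2i + 5-AZA. Monocyte_1 was at 425, 474 and 530 CPM in IRF3/7, COX2i and COX2i + 5-AZA, and Infl_Mono at 57.8, 276, 190 and 352 CPM in the 4 libraries. In the macrophages Ass1 was lower but ordered alike, at 55.9, 118 and 322 CPM in TAM_Spp1 and 5.03, 17.1 and 49.5 CPM in TAM_C1q of CTRL, COX2i and COX2i + 5-AZA.

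Slc7a2, a cationic amino acid carrier that brings arginine into the cell, was sparse. It stood at 9.07 CPM (8.29 to 9.91) in CTRL, 3.92 (3.06 to 4.95) in IRF3/7, 11.9 (11.1 to 12.8) in COX2i and 25.5 (24.3 to 26.7) in COX2i + 5-AZA. The log2 ratio was -1.21 (-1.59 to -0.85) for IRF3/7, 0.39 (0.23 to 0.56) for COX2i and 1.49 (1.35 to 1.64) for COX2i + 5-AZA against CTRL, and 1.10 (0.97 to 1.22) for COX2i + 5-AZA against COX2i. TAM_Spp1 held 15.6, 22.2 and 66.8 CPM in CTRL, COX2i and COX2i + 5-AZA and was the highest class in COX2i + 5-AZA. In CTRL Infl_Mono stood at 18.6 CPM, from 9 UMIs, and in COX2i Monocyte_1 at 26.3, neither apart from TAM_Spp1 beyond counting error, and Infl_Mono in IRF3/7 held 3.67 CPM. Slc7a2 was thus lowest in IRF3/7 and highest in COX2i + 5-AZA, while Nos2 was high in both. The IRF3/7 value against CTRL was -2.34 within Infl_Mono alone and -0.46 over cells with more than 2000 detected genes.

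Odc1, which makes putrescine from ornithine, varied least. It stood at 229 CPM (225 to 233) in CTRL, 160 (155 to 166) in IRF3/7, 210 (207 to 214) in COX2i and 377 (372 to 382) in COX2i + 5-AZA. The log2 ratios against CTRL were -0.52 (-0.57 to -0.46), -0.12 (-0.16 to -0.09) and 0.72 (0.69 to 0.75), and COX2i + 5-AZA was above COX2i by 0.84 (0.81 to 0.87). The IRF3/7 value was -0.0044 with size factors and 0.34 with common class weights, so no direction is given for it. Odc1 was also high outside the myeloid cells: Myofibrobl, the non-immune cells left in the sort, held 426, 1413, 315 and 635 CPM, and NK cells 395 CPM in IRF3/7 and 747 in COX2i + 5-AZA. Only 27.2% of the Odc1 UMIs of IRF3/7 came from monocytes and macrophages, against 70.8% to 85.9% in the other libraries, while for Nos2 the share was 93.9% to 97.3%. Of the 10506 Odc1 UMIs of IRF3/7, 6337 lay in 172 Myofibrobl cells. Over all cells the Odc1 log2 ratio of IRF3/7 against CTRL was 0.61, and 0.04 without the 1% of cells with the most UMIs.

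Differences of 2-fold or more were common in IRF3/7 and rare in COX2i, which bears on how these 4 genes read. In IRF3/7 against CTRL, 2 of the 4 were higher by 2-fold or more (Nos2, Ass1) and 1 lower (Slc7a2), where 9.16% of all genes were higher and 32.2% lower. In COX2i against CTRL, Ass1 was higher and none lower, beside 1.93% and 4.7% of all genes. In COX2i + 5-AZA, 3 were higher than in CTRL (Nos2, Ass1, Slc7a2) and none lower, beside 5.65% and 11.3% of all genes, and the same 3 were higher than in COX2i and none lower, beside 6.16% and 9.77%. Odc1 lay under 2-fold in COX2i + 5-AZA and passed it with common class weights (1.00 against CTRL and 1.09 against COX2i) and, against COX2i, with size factors (1.01). With the same class weights Nos2 in IRF3/7 against CTRL (0.81) and Ass1 (0.87) and Slc7a2 (0.96) in COX2i + 5-AZA against COX2i fell short of 2-fold. Median log2 ratios of the 4 genes were 1.58, 0.39, 2.62 and 1.7 in these comparisons, and of all genes -0.55, 0.01, -0.16 and -0.19. Size factors moved every log2 ratio up by 0.51 in IRF3/7 against CTRL and by 0.16 in both comparisons of COX2i + 5-AZA, and hardly at all in COX2i against CTRL. With them 15.3% of all genes were higher and 19.8% lower by 2-fold or more in IRF3/7 against CTRL, and Slc7a2 was no longer among the lower.

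Nos2 was then counted in single cells, each thinned to 2000 UMIs so that depth was equal. Cells under 2000 UMIs were left out, 212, 975, 187 and 492 monocytes and macrophages of CTRL, IRF3/7, COX2i and COX2i + 5-AZA, so that 7402, 4060, 7191 and 8309 remained. A Nos2 UMI was found in 0.878% (0.678 to 1.12) of CTRL cells, 10.8% (9.87 to 11.8) of IRF3/7 cells, 1.24% (0.995 to 1.52) of COX2i cells and 12.1% (11.4 to 12.9) of COX2i + 5-AZA cells. The intervals of CTRL and COX2i overlapped, as did those of IRF3/7 and COX2i + 5-AZA, while those of the first and second pair lay apart. Without thinning the shares were 1.46%, 13%, 2.2% and 18.4%.

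Free RNA can give single UMIs in cells that do not express a gene, and NK cells and cDC2, which should lack Nos2, show how many. A Nos2 UMI was found in 2 of 409 NK cells of IRF3/7 (0.489%, 0.0593 to 1.76) and 3 of 291 of COX2i + 5-AZA (1.03%, 0.213 to 2.98). In cDC2 it was found in 1 of 609 cells of CTRL (0.164%, 0.00416 to 0.911), 3 of 343 of IRF3/7 (0.875%, 0.181 to 2.53), none of 640 of COX2i (exact upper limit 0.575%) and 3 of 245 of COX2i + 5-AZA (1.22%, 0.253 to 3.54). The IRF3/7 and COX2i + 5-AZA shares of monocytes and macrophages lay well above these, and the CTRL interval overlapped that of CTRL cDC2, so single Nos2 UMIs in CTRL are weak evidence of expression.

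By class, the share with a Nos2 UMI was 20.6% (19.2 to 22) in Monocyte_1 of COX2i + 5-AZA, 13.4% (8.89 to 19.2) in IRF3/7 and 10.3% (7.31 to 14) in COX2i. Infl_Mono held 8.89% (3.92 to 16.8) in CTRL, 11.7% (10.7 to 12.9) in IRF3/7, 2.5% (0.519 to 7.13) in COX2i and 15.3% (12.8 to 18.1) in COX2i + 5-AZA, so that the shares of CTRL, from 8 of 90 cells, and IRF3/7 overlapped, although the level of Nos2 in this class had a log2 ratio of 0.81 (0.33 to 1.34). TAM_Spp1 held 1.64% (1.16 to 2.26) in CTRL, 1.83% (1.19 to 2.69) in COX2i and 10.7% (8.65 to 13) in COX2i + 5-AZA. Cells with a Nos2 UMI were thus more frequent in TAM_Spp1 under both agents than under celecoxib alone, beyond counting error.

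The class with the most cells that held a Nos2 UMI differed between CTRL, IRF3/7 and COX2i, and was Monocyte_1 in both COX2i and COX2i + 5-AZA. Of 65 such monocytes and macrophages of CTRL, 37 were TAM_Spp1 (56.9%), a class that made up 30.4% of the cells. TAM_C1q held 15.4% of them and 42.0% of the cells. Infl_Mono held 8 (12.3%) and 1.22% of the cells, and Monocyte_1 7 (10.8%) and 0.581% of the cells. In IRF3/7, 407 of 439 were Infl_Mono (92.7%), which made up 85.4% of the cells. In COX2i, Monocyte_1 held 36 of 89 (40.4%) and 4.87% of the cells, and TAM_Spp1 25. In COX2i + 5-AZA, Monocyte_1 held 707 of 1008 (70.1%) and 41.3% of the cells, followed by Infl_Mono with 113 and TAM_Spp1 with 88.

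**Figure D3:**
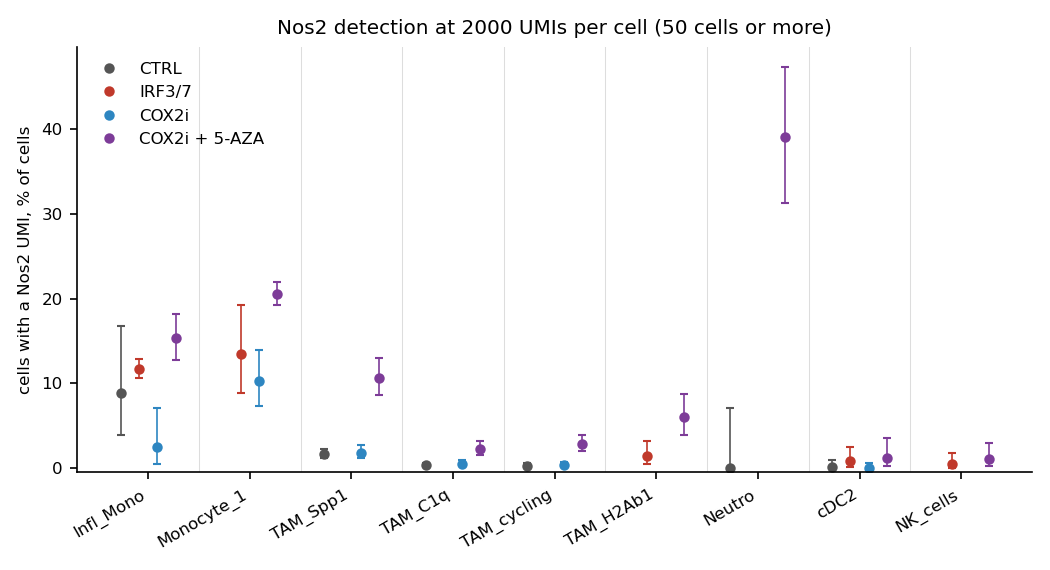
Percent of cells with a Nos2 UMI at 2000 UMIs per cell (y axis) in 9 classes (x axis), with 1 point per library where at least 50 cells remained and exact Clopper-Pearson 95% intervals. Neutro of COX2i + 5-AZA lies highest (39.1%), followed by its Monocyte_1 (20.6%), while cDC2 and NK_cells lie between 0% and 1.22% in each library shown.

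A few cells held many Nos2 UMIs. At full depth, which differed between libraries, 10 or more Nos2 UMIs were counted in 13, 41, 14 and 255 cells of CTRL, IRF3/7, COX2i and COX2i + 5-AZA. The highest Nos2 count in 1 cell was 107, in COX2i + 5-AZA.

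Cells with a Nos2 UMI were set against cells without one in the 4 pairs of a monocyte or macrophage class and a library with the most of them, Infl_Mono of IRF3/7 (407 against 3059 cells) and Infl_Mono (113 against 624), Monocyte_1 (707 against 2727) and TAM_Spp1 (88 against 736) of COX2i + 5-AZA. These pairs were chosen after their cell numbers were seen, and cells of 1 library are not replicates of one another. In this order, 1.09%, 1.84%, 1.36% and 2.55% of all genes were higher by 2-fold or more in the cells with a Nos2 UMI, and 6.24%, 6.62%, 1.87% and 8.64% lower. Cells with and without were alike in shared droplets (27.3% to 33.9% and 26.9% to 31.1%), and at most 0.283% of either belonged to the 1% of cells with the most UMIs. Median UMIs before thinning were 3720 against 3435, 4769 against 4537, 4897 against 5385 and 5011 against 5713.5. Cells were split by their Nos2 count after thinning, while levels in CPM were taken at full depth. The cells without a Nos2 UMI are thus not all free of Nos2 at full depth. In Monocyte_1 of COX2i + 5-AZA, 1038 of 3640 cells held a Nos2 UMI at full depth. After thinning it was 707 of the 3434 cells kept.

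Slc7a2, the carrier, had a higher level in the cells with a Nos2 UMI in each pair. It stood at 11.3 against 2.84 CPM in Infl_Mono of IRF3/7 (log2 ratio 1.99, 1.10 to 2.85), from 19 and 33 UMIs, and at 16.3 against 5.79 CPM in Infl_Mono of COX2i + 5-AZA (1.49, 0.23 to 2.67), from 10 and 19. Monocyte_1 gave 49.5 against 20.4 CPM (1.28, 1.02 to 1.54) and TAM_Spp1 211 against 51.8 CPM (2.03, 1.67 to 2.37). At 2000 UMIs per cell, 8.06% (6.16 to 10.3) of the Monocyte_1 cells with a Nos2 UMI also held a Slc7a2 UMI, against 2.97% (2.37 to 3.68) of those without, and in TAM_Spp1 20.5% (12.6 to 30.4) against 8.02% (6.16 to 10.2). In Infl_Mono these shares overlapped, at 1.47% (0.543 to 3.18), from 6 cells, against 0.425% (0.226 to 0.726) in IRF3/7 and at 1.77% (0.215 to 6.25), from 2 cells, against 1.28% (0.555 to 2.51) in COX2i + 5-AZA. NK cells held a Slc7a2 UMI in 0.244% (0.00619 to 1.35) in IRF3/7 and 0.344% (0.00870 to 1.90) in COX2i + 5-AZA, and cDC2 in 0.408% (0.0103 to 2.25) there. The Infl_Mono shares overlapped this background. In COX2i + 5-AZA the Slc7a2 level was 5.80 CPM in NK cells and 6.10 in cDC2.

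Ass1 was higher in the same cells by less. It stood at 351 against 269 CPM in Infl_Mono of IRF3/7 (0.39, 0.26 to 0.51), 542 against 318 in Infl_Mono of COX2i + 5-AZA (0.77, 0.59 to 0.95), 707 against 488 in Monocyte_1 (0.53, 0.47 to 0.60) and 530 against 299.7 in TAM_Spp1 (0.82, 0.62 to 1.02). Both enzymes, the one that yields citrulline and the one that takes it back, were counted in the same cell in 428 of the 707 Monocyte_1 cells with a Nos2 UMI (60.5%, 56.8 to 64.2), while 49.9% (48 to 51.8) of those without held an Ass1 UMI. Ass1 UMIs were also found in 12.4% (8.82 to 16.7) of NK cells, 9.27% (5.16 to 15.1) of Neutro and 8.81% (4.90 to 14.3) of Myofibrobl of COX2i + 5-AZA, below both shares. In the other pairs the intervals of these shares overlapped, at 39.8% (35.0 to 44.7) against 34.5% (32.8 to 36.2) in Infl_Mono of IRF3/7, 52.2% (42.6 to 61.7) against 39.9% (36.0 to 43.9) in Infl_Mono of COX2i + 5-AZA and 36.4% (26.4 to 47.3) against 33.0% (29.6 to 36.5) in TAM_Spp1.

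Odc1 had a lower level in the cells with a Nos2 UMI in COX2i + 5-AZA. It stood at 176 against 284 CPM in Infl_Mono (-0.69, -0.99 to -0.40), 263 against 315 in Monocyte_1 (-0.26, -0.36 to -0.16) and 349 against 603 in TAM_Spp1 (-0.79, -1.02 to -0.56). In Infl_Mono of IRF3/7 it stood at 172 against 155 CPM (0.16, -0.03 to 0.34), which is within counting error. At 2000 UMIs per cell the share with an Odc1 UMI lay apart in Monocyte_1 of COX2i + 5-AZA only, at 26.4% (23.2 to 29.9) against 31.9% (30.2 to 33.7). It was 24.8% (17.1 to 33.8) against 24.7% (21.3 to 28.3) in Infl_Mono and 40.9% (30.5 to 51.9) against 44.3% (40.7 to 48.0) in TAM_Spp1 of COX2i + 5-AZA, and 21.6% (17.7 to 25.9) against 18.6% (17.2 to 20.0) in Infl_Mono of IRF3/7.

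Neutrophil markers, 6 in all, moved with Nos2 in some of these pairs. Their summed level in cells with and without a Nos2 UMI was 2667 and 1825 CPM in Infl_Mono of IRF3/7, 3668 and 5474 in Infl_Mono of COX2i + 5-AZA, 1035 and 580 in Monocyte_1 and 2112 and 371 in TAM_Spp1, with 5 of the 6 above 0 in the TAM_Spp1 cells with a Nos2 UMI and all 6 elsewhere. Their part in the differences was not tested. Summed macrophage markers were 7270 and 9921, 7081 and 6972, 8694 and 9995, and 6132 and 9512 CPM.

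Hypoxia-response genes were higher in the cells with a Nos2 UMI. Of 14 listed genes tested in Infl_Mono of IRF3/7, 7 were higher by 2-fold or more, none was lower by as much and 13 were above 0 (median log2 ratio 0.97, all genes -0.14). In COX2i + 5-AZA it was 5 of 14 in Infl_Mono (median 0.73, all genes -0.13), 6 of 15 in Monocyte_1 (median 0.79, all genes -0.07) and 6 of 14 in TAM_Spp1 (median 0.79, all genes -0.14), and none lower. Egln3, a HIF prolyl hydroxylase, stood at 32.7 against 5.07 CPM in Infl_Mono of IRF3/7 (2.69), 52.1 against 16.1 in Infl_Mono of COX2i + 5-AZA (1.69), 72 against 14 in Monocyte_1 (2.36) and 296 against 43.1 in TAM_Spp1 (2.78). Vegfa, the vascular growth factor, had log2 ratios of 1.32, 1.04, 0.76 and 0.80 in the same order, the mitophagy receptor Bnip3 1.01, 1.69, 1.35 and 1.73, the oxidoreductase Ero1l 1.36, 1.36, 1.33 and 1.89, and the glucose carrier Slc2a1 1.05, 0.84, 0.95 and 1.55. Classical activation markers moved less, with 1 of 14, 0 of 15, 0 of 14 and 0 of 14 higher by 2-fold or more (medians 0.30, -0.13, 0.09 and 0.10). These counts stand beside the same shares of all genes. Of the alternative markers, 0 of 10, 0 of 11, 3 of 14 and 1 of 12 were lower by as much, beside 6.24%, 6.62%, 1.87% and 8.64% of all genes, and 1 was higher, in Infl_Mono of COX2i + 5-AZA.

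**Figure D4:**
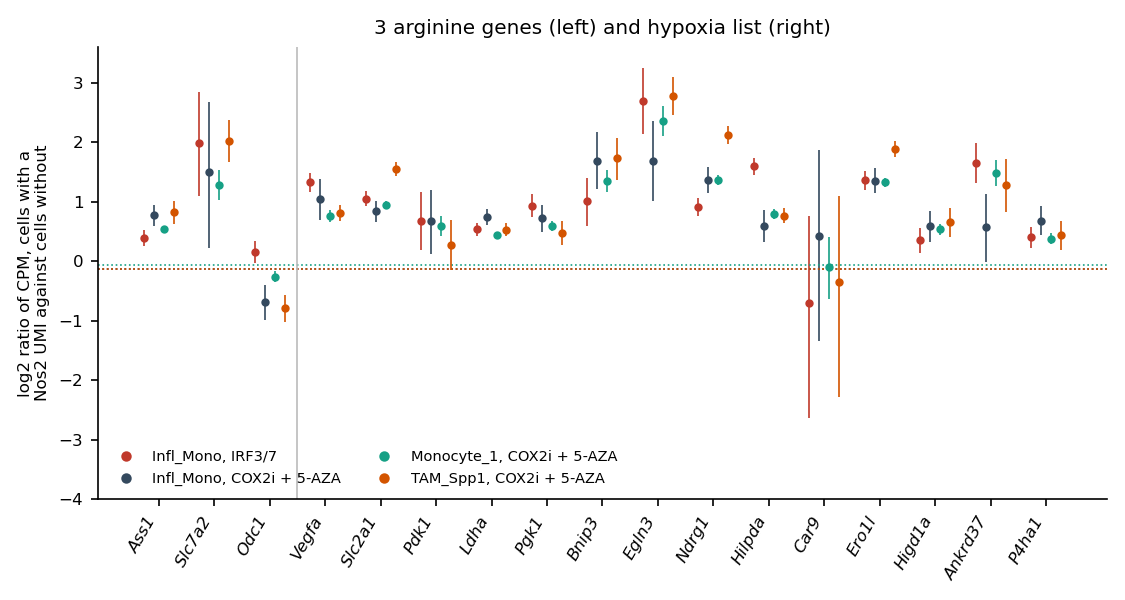
Log2 ratio of CPM in cells with a Nos2 UMI against cells without (y axis), for the other 3 arginine genes (left of the line) and the hypoxia list (right), in 4 pairs of class and library shown by colour. Cells were split by their Nos2 count after thinning, and CPM was taken at full depth. Points are genes with exact 95% intervals and dotted lines the medians of all genes (-0.14 to -0.07). Slc7a2 lies between 1.28 and 2.03 and Egln3 between 1.69 and 2.78, while Odc1 lies between -0.79 and 0.16.

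The wider arginine pathway was counted in the same way. Of 59 other listed genes of transport, urea cycle, nitric oxide, cofactor, polyamine, proline, creatine and methylation steps, 52 were in the table. In IRF3/7 against CTRL, 3 of 50 tested were higher by 2-fold or more and 28 lower (median -1.11, all genes -0.55), beside 9.16% and 32.2% of all genes. With size factors, chosen here after seeing the data, it was 4 higher and 20 lower, beside 15.3% and 19.8%. The 3 higher with totals were Gch1, which starts the synthesis of the nitric oxide synthase cofactor tetrahydrobiopterin (53.9 and 199 CPM, 1.88), and the polyamine-breakdown enzymes Sat1 (549 and 1525 CPM, 1.47) and Smox (205 and 554 CPM, 1.44). Lower were 6 of 7 genes between ornithine and proline, all 4 of creatine and agmatine, 4 of 6 protein arginine methyltransferases and 2 of 5 carriers, beside the 32.2% of all genes. With size factors it was 3 of 7, all 4, 3 of 6 and 1 of 5, beside 19.8%. The cell mix moved with these counts, from 139 monocytes and 7475 macrophages in CTRL to 4596 and 439 in IRF3/7. Summed macrophage markers stood at 45572 and 13327 CPM, neutrophil markers at 154 and 1610 CPM and the 2 cycling markers at 396 and 39.4 CPM, all markers above 0. Their part in the pathway counts was not tested.

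Against CTRL, 2 of 51 pathway genes were higher and 2 lower in COX2i (median 0.14), beside 1.93% and 4.7% of all genes, and 1 higher and 5 lower in COX2i + 5-AZA (median -0.13), beside 5.65% and 11.3%. Against COX2i, none was higher and 5 were lower in COX2i + 5-AZA (median -0.36), beside 6.16% and 9.77%. Apart from the lower genes of IRF3/7, these counts, higher and lower, rest on at most 5 genes. Cell mix and level per cell cannot be told apart in any count, the lower genes of IRF3/7 included. None is thus a result about the pathway. Slc7a1, the other main arginine carrier, stood at 29.7, 5.94, 49.7 and 24.8 CPM in the 4 libraries, an order unlike that of Slc7a2. Asl, which completes the return of citrulline to arginine after Ass1, stood at 79.5, 61.9, 79.7 and 80.9 CPM, nearly even while Ass1 varied. Ddah2, which clears an inhibitor of nitric oxide synthase, stood at 20.5, 3.92, 24 and 5.99 CPM, lowest in the libraries where Nos2 was high. The part of the cell mix in these orders was not tested.

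Nos2 is a textbook marker of classical macrophage activation, and other markers of classical and of alternative activation were counted beside it. In IRF3/7 against CTRL, 13 of 17 classical markers were higher by 2-fold or more and 1 lower (median 2.11), with Cxcl10 at 6.03, Il27 at 4.79 and Il6 at 4.38. Of 15 alternative markers 2 were higher, Chil3 at 3.66 and Pdcd1lg2 at 2.38, and 6 lower, among them Mrc1 at -4.41, Retnla at -5.12, Mgl2 at -6.31 and Cd163 at -6.28. In COX2i + 5-AZA against CTRL, 10 of 17 classical markers (median 1.39) and 8 of 15 alternative markers were higher, the latter with Pdcd1lg2 at 5.43, Retnla at 3.36, Mgl2 at 2.83 and Ccl24 at 2.48, and Cd163 was lower at -3.05. Chil3 is also a monocyte marker. In COX2i against CTRL, 5 of 16 classical and 5 of 15 alternative markers were higher, and 1 and 4 lower. The shares of all genes higher and lower were 9.16% and 32.2% in IRF3/7, 5.65% and 11.3% in COX2i + 5-AZA and 1.93% and 4.7% in COX2i. With size factors, 16 of 17 classical and 3 of 15 alternative markers were higher and 1 and 6 lower in IRF3/7, beside 15.3% and 19.8% of all genes. The 6 of 15 alternative markers lower in IRF3/7 are thus near the share of all genes with totals and above it with size factors. The cell mix moved with these lists, from 139 monocytes and 7475 macrophages in CTRL to 4596 and 439 in IRF3/7, with macrophage markers at 45572 and 13327 CPM (all 8 above 0) and neutrophil markers at 154 and 1610 CPM (all 6 above 0). Mrc1 and Cd163 are themselves genes of macrophages, so cell mix and level per cell cannot be told apart in these counts.

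Across the 40 sums of a class and library with at least 50 cells, the genes most like Nos2 in log2(CPM + 1) among 10814 genes were Inpp5j (Pearson r 0.841), Il27 (0.832), Glrx (0.823), C3 (0.812) and Fpr2 (0.812). Sums of a library share its depth and free RNA, so these are descriptions. Among the 4 genes, Nos2 was closest to Ass1 (0.556), followed by Slc7a2 (0.437) and Odc1 (-0.17).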

How the data were processed

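Single-cell RNA was measured in 4 libraries, 1 per group. Per the labels and the methods of the study, the authors ran cellranger multi (Cell Ranger 7.1.0) and the vendor's mouse probes (mm10), filtered cells and genes, removed ribosomal and mitochondrial genes, and named classes from clusters of several integrated experiments. The deposited matrix holds unnormalised UMI counts, and 1201 of its cells have 1000 or fewer detected genes. No value column was without a sample.

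UMI counts were summed per class and library with Python 3.11.15, numpy 2.4.6, scipy 1.17.1, pandas 2.3.3 and matplotlib 3.10.9. Ratios are given for classes with at least 50 cells in both libraries and, for lists, genes with at least 20 UMIs. In monocytes and macrophages, 3 UMIs correspond to 0.0438 to 0.168 CPM. Intervals are exact Poisson, Clopper-Pearson or conditional 95% intervals. Cells were thinned to 2000 UMIs with a fixed seed. Scripts were tested on simulated data. No doublet caller was run, and alternatives left out the 1% of cells with the most UMIs or the shared droplets. Shared droplets are those found in 2 or more libraries, so they do not show 2 cells of 1 library in 1 droplet. Named genes were the 4 genes, listed genes past 2-fold or among the highest of their list, and the 5 most alike genes. Members and lists were chosen with earlier results of these data known. Some planned results are not reported here. Cells with and without a Nos2 UMI were compared after the values were seen. Probes read only part of a transcript, and probe sequences were not used here.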

Additional observations from a re-analysis of the deposited data

Results flagged for a closer look

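For Nos2, the log2 ratio of COX2i against CTRL was 1.91 in TAM_cycling and -2.46 in Infl_Mono, with intervals on opposite sides of 0. For Slc7a2, IRF3/7 against CTRL gave 1.80 in Myofibrobl and -2.34 in Infl_Mono. COX2i + 5-AZA against CTRL gave 2.50 in cDC2 and -1.34 in Infl_Mono, again for Slc7a2. Each pair was noted because a pool of one class moved one way and a pool of another class the opposite way under the same contrast. The differences between classes were not tested, and each rests on 1 library per group. Several counts were small: Nos2 in Infl_Mono came from 35 UMIs in CTRL and 8 in COX2i, Nos2 in CTRL TAM_cycling from 10, and Slc7a2 in CTRL from 9 in Infl_Mono, 8 in Myofibrobl and 3 in cDC2. The CTRL Infl_Mono cells, on which each pair rests, carried summed macrophage markers of 50867 CPM against 9676 in IRF3/7, 17532 in COX2i and 6971 in COX2i + 5-AZA, and the part of these cells in the values was not tested.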

How the results depend on the processing

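All log2 ratios are in monocytes and macrophages unless stated, in the order IRF3/7, COX2i and COX2i + 5-AZA against CTRL, then COX2i + 5-AZA against COX2i, where a value that moved by less than its counting interval is left out. With median-of-ratios size factors Nos2 gave 4.58, 4.37 and 3.99 (COX2i against CTRL left out). With only cells above 2000 detected genes it gave 4.93, 0.77, 4.88 and 4.11, and with cells weighted equally 3.26, 3.99 and 3.48 (COX2i against CTRL left out). With common class weights over the classes that had at least 50 cells in both libraries, 1 for IRF3/7 and 5 otherwise, Nos2 gave 0.81, -0.90, 2.37 and 1.89, so COX2i against CTRL turned direction, and Ass1 (0.87) and Slc7a2 (0.96) in COX2i + 5-AZA against COX2i fell short of 2-fold, while Odc1 in COX2i + 5-AZA passed it (1.00 against CTRL and 1.09 against COX2i, and 1.01 against COX2i with size factors). Odc1 in IRF3/7 against CTRL turned from -0.52 to 0.34 with common class weights, and over all cells from 0.61 to -0.27 with cells weighted equally. Without the 1% of cells with the most UMIs it was 0.04 over all cells. Of 176 alternatives to log2 ratios, 3 turned direction, 97 moved beyond the counting interval in the same direction and 76 did not. The share of monocytes and macrophages with a Nos2 UMI was 1.46%, 13%, 2.2% and 18.4% in CTRL, IRF3/7, COX2i and COX2i + 5-AZA without thinning, 0.604%, 5.98%, 0.949% and 8.63% thinned to 1000 UMIs, and 0.378%, 4.75%, 0.64% and 6.7% with at least 2 UMIs. Thinned to 4000 UMIs it was 15.8% in IRF3/7 and 14.4% in COX2i + 5-AZA. Cells under 4000 UMIs were then left out, while the median was 3148 UMIs in IRF3/7 and 6300 in COX2i + 5-AZA. The order of these libraries thus changed together with the cells kept. With a minimum of 100 UMIs, 3 pathway genes in place of 5 were lower in COX2i + 5-AZA against CTRL and 1 in place of 2 in COX2i against CTRL. The cause of these shifts was not tested. No paired analysis was possible because each group has 1 library.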
